A study of Mus musculus with 12 samples.

Results

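The 10 enzymes of bile acid synthesis described here were Cyp7a1, Cyp8b1, Cyp27a1, Cyp7b1, Hsd3b7, Akr1d1, Amacr, Acox2, Slc27a5 and Baat. They were chosen by name, as enzymes of the classic pathway, the alternative pathway and conjugation, with earlier results of these data known. Each matched 1 of the 50686 gene identifiers of the deposited count table. All 10 passed the filter on low counts, which left 14248 genes for testing. Bile acids are made from cholesterol in hepatocytes. In the classic pathway Cyp7a1 adds the first hydroxyl group to the sterol ring and sets the rate, while in the alternative pathway Cyp27a1 first oxidises the side chain and Cyp7b1 then hydroxylates the ring. The ring is next rearranged and reduced, the side chain is shortened in peroxisomes, and the product is joined to taurine or glycine and secreted into bile. Bile acids that return to the liver repress Cyp7a1 and Cyp8b1 through the nuclear receptor FXR and through the hormone FGF15. These transcripts are known to vary with feeding and time of day, neither of which the labels give.

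Livers came from FVB/N mice injected at 6 to 8 weeks of age through the tail vein with small interfering RNA (siRNA) in lipid nanoparticles, at 0.5 mg/kg and with 1 injection in 5 days. The siRNA was directed at Eif3m, a subunit of the translation initiation factor eIF3, or was a scrambled luciferase control, which the labels give to both control groups. Livers were taken at day 9 or day 13, giving 4 groups of 3 libraries of messenger RNA from ground whole liver. Eif3m stood at 10.7% of its control level at day 9 and at 6.53% at day 13. The labels do not say that each library came from its own animal, and every p-value rests on how much these libraries spread, which may be technical. Libraries held 38783564 to 54538581 counts at day 9 and 7650269 to 9630027 at day 13, and the days were separate sets of libraries, so each effect was taken against the controls of its own day. Day 13 control replicate 3 and day 13 siRNA replicate 2 stood apart from the rest of their groups on the third principal component, and results are given without them where that changes a call or a count of the enzymes or lists. In whole liver, fewer hepatocytes and less RNA per hepatocyte cannot be told apart.

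Transcripts of Cyp27a1 (side-chain oxidation), Hsd3b7 and Akr1d1 (ring remodelling) and Slc27a5 and Baat (conjugation) were lower with Eif3m siRNA at both days. Those of the ring hydroxylases Cyp7a1, Cyp8b1 and Cyp7b1 did not pass the test at either day. Their standard errors, 0.32 to 0.61 on the log2 scale, were the widest of the 10. Cyp39a1, an oxysterol hydroxylase outside the 10, fell at both days (log2 fold changes −0.53 and −0.78), as did Cyp2c70 (−0.48 and −0.64). At day 9, 5 of the 10 enzymes fell and none rose, against 6.84% of all genes tested that were lower and 5.94% that were higher (12.8% in either direction), and none was higher at an unadjusted p under 0.05 or by DESeq2 or limma-voom. The 5 that fell were Cyp27a1, Hsd3b7, Akr1d1, Slc27a5 and Baat, and at day 13 the same 5 genes and Amacr fell, 6 of 10 against 10.9% of all genes lower. Acox2 rose at day 13, against 12.8% of all genes higher, so that 7 of 10 were called against 23.7% of all genes. Of all genes at day 13, 1824 were higher and 1553 lower, and with upper-quartile scaling 1574 were higher and 1808 lower. Among the 9312 genes averaging 5 or more counts per 1000000 counts of the library (CPM), where all 10 enzymes lie, the shares were 8.60% lower and 6.64% higher at day 9, and 13.5% lower and 16.5% higher at day 13. The median log2 fold change of the 10 was −0.32 at day 9 and −0.69 at day 13, against 0.01 and 0.00 for all genes tested. Their summed level was 2725 to 2980 CPM among day 9 control libraries, and 1795 to 2087 CPM among day 9 siRNA libraries. At day 13 the sum was 2431 to 2621 CPM in the controls and 1450 to 1675 CPM in the siRNA libraries. Called here means an adjusted p under 0.05 in edgeR's quasi-likelihood test, with p-values adjusted by the Benjamini-Hochberg method over all 14248 genes, and fold changes are siRNA over control on the log2 scale with their standard error (SE).

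**Figure D1:**
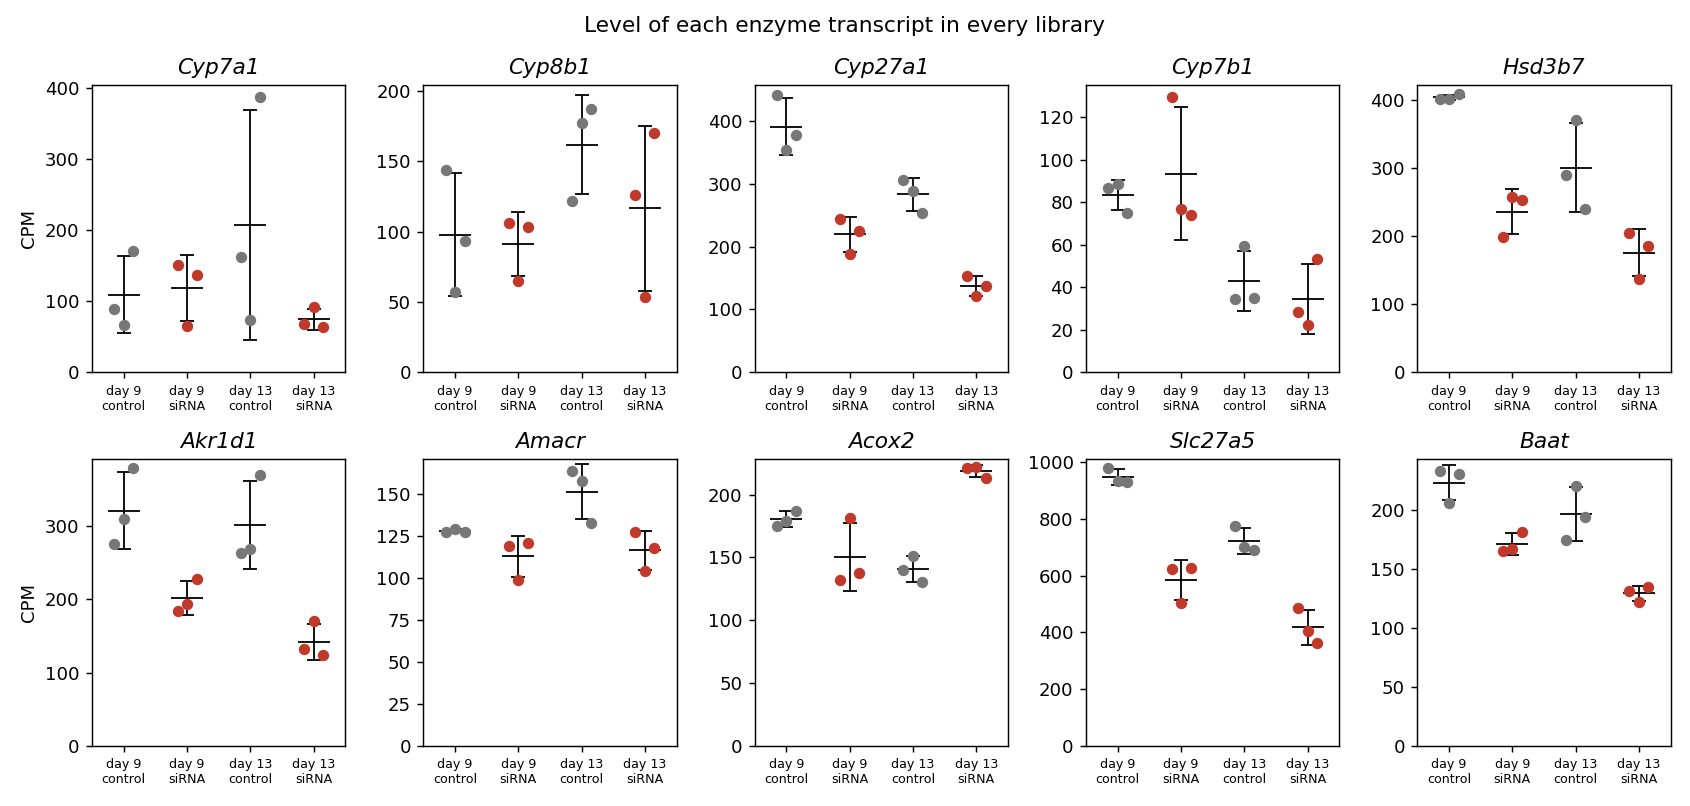
Level in CPM of each of the 10 transcripts in every library (points, grey for control and red for Eif3m siRNA), with the group mean and SD as bars (n = 3). Cyp27a1, Hsd3b7, Akr1d1, Slc27a5 and Baat are lower in every siRNA library than in any control library of the same day, whereas Cyp7a1, Cyp8b1 and Cyp7b1 overlap.

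RefSeq promoter windows, 250 bases before to 50 bases after a transcription start on build GRCm38.p6, were found for 5 of the 10 genes. They are shown because 3 of these genes fell at both days (Cyp27a1, Akr1d1 and Hsd3b7), 1 rose at day 13 (Acox2, the upstream of its 2 listed starts) and 1 did not pass the test (Cyp8b1). Capitals mark matches, on either strand, to the nuclear receptor hexamer AGGTCA, to the HNF4 motif CAAAGTCCA or to the TATA box TATAAA, none of which overlap here.
Cyp27a1, chr1:74713285-74713584, plus strand: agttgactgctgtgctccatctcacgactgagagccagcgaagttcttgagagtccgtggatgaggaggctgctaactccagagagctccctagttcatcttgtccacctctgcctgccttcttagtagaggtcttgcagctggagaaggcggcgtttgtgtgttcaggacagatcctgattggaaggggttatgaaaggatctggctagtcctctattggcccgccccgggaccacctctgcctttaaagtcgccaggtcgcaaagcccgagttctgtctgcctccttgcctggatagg
Akr1d1, chr6:37529923-37530222, plus strand: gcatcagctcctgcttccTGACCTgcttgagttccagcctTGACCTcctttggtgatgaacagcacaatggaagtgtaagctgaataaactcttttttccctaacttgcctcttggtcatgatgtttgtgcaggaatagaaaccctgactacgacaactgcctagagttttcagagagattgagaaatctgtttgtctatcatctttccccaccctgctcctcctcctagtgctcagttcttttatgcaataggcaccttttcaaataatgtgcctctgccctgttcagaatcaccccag
Hsd3b7, chr7:127800359-127800658, plus strand: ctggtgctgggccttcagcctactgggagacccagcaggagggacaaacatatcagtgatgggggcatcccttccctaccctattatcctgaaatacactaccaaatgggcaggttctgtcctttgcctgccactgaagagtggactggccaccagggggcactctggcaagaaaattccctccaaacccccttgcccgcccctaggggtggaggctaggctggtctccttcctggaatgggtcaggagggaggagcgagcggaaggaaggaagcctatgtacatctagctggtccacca
Acox2, chr14:8258970-8259269, minus strand: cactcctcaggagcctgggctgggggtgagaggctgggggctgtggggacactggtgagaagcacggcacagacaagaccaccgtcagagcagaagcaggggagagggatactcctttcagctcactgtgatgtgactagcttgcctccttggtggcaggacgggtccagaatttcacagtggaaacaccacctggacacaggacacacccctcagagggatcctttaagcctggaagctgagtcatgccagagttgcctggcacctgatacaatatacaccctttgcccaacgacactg
Cyp8b1, chr9:121916256-121916555, minus strand: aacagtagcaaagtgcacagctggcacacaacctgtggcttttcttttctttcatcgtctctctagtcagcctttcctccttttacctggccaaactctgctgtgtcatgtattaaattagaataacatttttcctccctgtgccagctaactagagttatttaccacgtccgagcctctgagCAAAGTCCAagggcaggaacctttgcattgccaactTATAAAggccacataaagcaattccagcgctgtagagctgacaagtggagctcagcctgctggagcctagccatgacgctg
The Akr1d1 window held 2 hexamers, and the Cyp8b1 window held 1 HNF4 motif and 1 TATA box. The other 3 windows printed held none of these letters. Of 32851 RefSeq windows of this length, 16.3% held the hexamer, 0.475% the HNF4 motif and 13.6% the TATA box.

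Cyp7a1 (ENSMUSG00000028240, chromosome 4, 6265612 to 6275633 of mm10, minus strand) starts the classic pathway. The day 9 control libraries held 89.1, 66.7 and 170 CPM, and the siRNA libraries 151, 64.5 and 137 CPM. The groups overlapped over nearly their whole range, with an effect of 0.11 on the log2 scale (SE 0.59, adjusted p = 0.929). At day 13 the controls held 161, 73.1 and 386.5 CPM and the siRNA libraries 67.4, 91.3 and 63.3 CPM. Control replicate 2 lay within the range of the siRNA libraries, and control replicate 3 was the highest library of all 12. The day 13 effect was −1.48 (SE 0.61, adjusted p = 0.112), with a 95% interval from −2.86 to −0.11 that is not adjusted for the number of genes. This value rests on single libraries. It was −0.68 (adjusted p = 0.419) without day 13 control replicate 3, −0.86 (adjusted p = 0.422) without that library and day 13 siRNA replicate 2, and −1.89 with a call (adjusted p = 0.0342) without day 13 control replicate 2.

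Cyp8b1 (ENSMUSG00000050445, chromosome 9, 121914356 to 121916305, minus strand, with 1 exon) adds the hydroxyl group that makes cholic acid. Day 9 control libraries held 144, 56.9 and 93.2 CPM and siRNA libraries 106, 64.6 and 103 CPM, whose range lay inside that of the controls. The day 13 levels were 122, 177 and 187 CPM in the controls and 126, 53.7 and 170 CPM in the siRNA libraries, and the groups overlapped again. Its log2 fold changes were −0.10 (SE 0.43) at day 9 and −0.48 (SE 0.44) at day 13, with adjusted p = 0.910 and adjusted p = 0.482. The 95% intervals of the log2 fold change, −1.07 to 0.86 at day 9 and −1.46 to 0.51 at day 13, were too wide to show that Cyp8b1 was unaltered. With 1 library left out, the day 13 value ran from −0.87 (without siRNA replicate 3) to −0.14 (without siRNA replicate 2), and without both day 13 libraries that stood apart it was −0.03.

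In the alternative pathway, Cyp27a1 (ENSMUSG00000026170, chromosome 1, 74713574 to 74737892, plus strand), the mitochondrial enzyme that oxidises the sterol side chain, fell at both days. Day 9 control libraries held 442, 354 and 378 CPM, and siRNA libraries 244, 189 and 225 CPM. At day 13 they were 307, 289 and 254 CPM in the controls and 153, 121 and 138 CPM in the siRNA libraries. Every siRNA library was below every control library of its day. The siRNA groups averaged 56.1% of the control level at day 9 (log2 fold change −0.83, SE 0.13, adjusted p = 0.00142) and 48.5% at day 13 (−1.04, SE 0.13, adjusted p = 0.000117). Cyp7b1 (ENSMUSG00000039519, chromosome 3, 18071950 to 18243338, minus strand), the oxysterol hydroxylase that follows it, did not pass the test. It held 86.7, 88.3 and 75.0 CPM in the day 9 controls and 129.5, 76.7 and 73.9 CPM in the siRNA libraries, of which replicate 1 was above every control. Day 13 levels were 34.5, 59.1 and 34.9 CPM in the controls and 28.1, 22.0 and 53.1 CPM in the siRNA libraries, of which replicate 3 lay within the controls. The log2 fold changes of Cyp7b1 were 0.16 (SE 0.32, 95% interval −0.55 to 0.88, adjusted p = 0.791) and −0.31 (SE 0.35, 95% interval −1.07 to 0.45, adjusted p = 0.563). The day 13 value of Cyp7b1 was −0.79 without siRNA replicate 3, −0.08 without siRNA replicate 2 and −0.01 without control replicate 2.

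The 2 of these 10 enzymes that remodel the sterol ring fell. Akr1c14, one of the other enzymes described below, did not pass the test at either day. Its log2 fold changes were −0.08 and −0.25 (adjusted p = 0.773 and 0.223 by edgeR). Hsd3b7 (ENSMUSG00000042289, chromosome 7, 127800604 to 127803802, plus strand) is the dehydrogenase that acts on the ring after its first hydroxylation. It held 402, 401 and 409 CPM in the day 9 controls, the tightest group of the 4 for this gene, and 198, 257 and 253 CPM in the siRNA libraries. At day 13 it held 290.5, 371 and 240.3 CPM in the controls and 204, 137 and 186 CPM in the siRNA libraries. The groups did not overlap at either day, and the log2 fold changes were −0.78 at both (SE 0.17 and 0.17, adjusted p = 0.00956 and 0.00511). Its exons overlap those of 9430064I24Rik on the other strand and of Gm49388 on the same strand, whose counts were at most 0.307% and 5.95% of those of Hsd3b7 in any library. Akr1d1 (ENSMUSG00000038641, chromosome 6, 37530173 to 37568815, plus strand), the reductase that gives the ring its bent shape, held 275, 310 and 379 CPM in the day 9 controls and 184, 194 and 227 CPM in the siRNA libraries. Akr1d1 at day 13 stood at 263, 269 and 370.2 CPM in the controls and 132, 170.4 and 124 CPM in the siRNA libraries. Again the groups did not overlap, and the log2 fold changes were −0.67 (SE 0.17, adjusted p = 0.0189) and −1.08 (SE 0.17, adjusted p = 0.000506). The day 9 call of Akr1d1 was lost without control replicate 3, siRNA replicate 1 or siRNA replicate 2 (adjusted p 0.0637 to 0.0901), and that of Hsd3b7 without siRNA replicate 1 (adjusted p = 0.0518).

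Of the 2 enzymes that prepare and shorten the side chain, Amacr and Acox2, the first fell and the second rose at day 13. Amacr (ENSMUSG00000022244, chromosome 15, 10981756 to 10996626, plus strand) is the racemase that turns the side chain into the form that peroxisomes can oxidise. It held 128, 129 and 128 CPM in the day 9 controls and 119, 98.8 and 121 CPM in the siRNA libraries, which did not overlap but differed too little to pass the test (log2 fold change −0.18, SE 0.12, adjusted p = 0.338). At day 13 it held 164, 158 and 133 CPM in the controls and 127, 104 and 118 CPM in the siRNA libraries, an effect of −0.38 on the log2 scale (SE 0.12, adjusted p = 0.0330). That call lay near the threshold and was lost when either of day 13 control replicates 1 and 2, or of siRNA replicates 2 and 3, was left out (adjusted p 0.0791 to 0.120), and with the day 13 libraries fitted alone (adjusted p = 0.0981).

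Acox2 (ENSMUSG00000021751, chromosome 14, 8225511 to 8259353, minus strand), the peroxisomal oxidase that opens the shortening of the side chain, was the 1 enzyme of the 10 that rose. Day 9 control libraries held 175, 179 and 187 CPM, and siRNA libraries 132, 181 and 138 CPM, of which replicate 2 lay within the controls (log2 fold change −0.26, SE 0.12, adjusted p = 0.174). Without that library the day 9 value was −0.42 and passed the test (adjusted p = 0.0337). The day 13 levels were 140.0, 151 and 130.3 CPM in the controls and 221, 222 and 213 CPM in the siRNA libraries. Every siRNA library was above every control, the siRNA group stood at 156% of the control level, and the effect was 0.64 on the log2 scale (SE 0.12, adjusted p = 0.00194).

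Conjugation transcripts fell at both days. Slc27a5 (ENSMUSG00000030382, chromosome 7, 12988346 to 12998192, minus strand), the ligase that joins bile acids to coenzyme A, had the highest level per kilobase of exon of the 10. It held 981, 934 and 930.3 CPM in the day 9 controls and 623, 502 and 629 CPM in the siRNA libraries. At day 13 it held 775, 701 and 691 CPM in the controls and 484.5, 406 and 362 CPM in the siRNA libraries. The log2 fold changes were −0.70 (SE 0.13, adjusted p = 0.00362) and −0.79 (SE 0.13, adjusted p = 0.000670). Baat (ENSMUSG00000039653, chromosome 4, 49489422 to 49506557, minus strand), which transfers the bile acid to taurine or glycine, held 233, 206 and 231 CPM in the day 9 controls and 165, 167 and 182 CPM in the siRNA libraries. At day 13 it held 175, 221 and 194 CPM in the controls and 131, 123 and 135 CPM in the siRNA libraries. Neither gene overlapped between its groups at either day. The changes of Baat were smaller, −0.38 (SE 0.11, adjusted p = 0.0325) and −0.60 (SE 0.11, adjusted p = 0.00129), and its day 9 call was lost when control replicate 1, control replicate 3 or any siRNA replicate was left out (adjusted p 0.0561 to 0.107). That day 9 call was also lost with day 9 counts thinned (adjusted p = 0.0578).

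**Figure D2:**
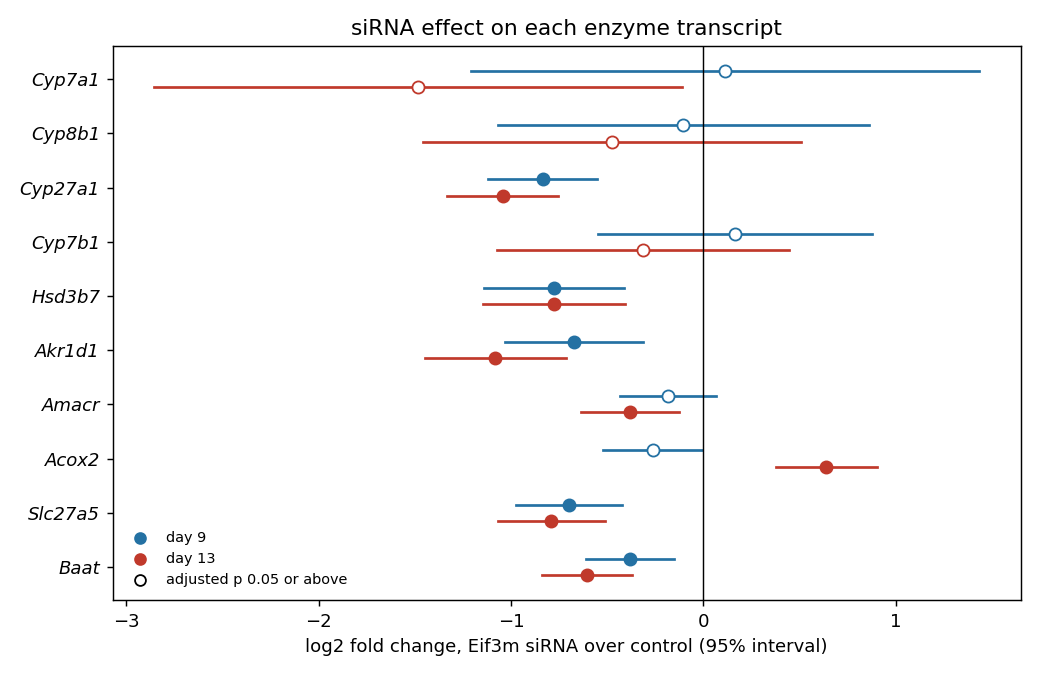
log2 fold change of each transcript, Eif3m siRNA over control, at day 9 (blue) and day 13 (red), with unadjusted 95% intervals and filled points for an adjusted p under 0.05. The 5 genes called at both days lie between −1.08 and −0.38, and Acox2 lies on opposite sides of 0 at the 2 days.

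The siRNA effect was tested for a difference between the days, as the day 13 effect minus the day 9 effect. The days also differed in library set, depth and Eif3m level, which cannot be told apart from time. Acox2 was the 1 of 10 that passed, against 2.55% of all genes (0.898% with a higher and 1.66% with a lower effect at day 13, and 1.17% and 1.64% among genes averaging 5 CPM or more). The split over all genes, 128 higher and 236 lower, was 86 and 290 with upper-quartile scaling. Its effect was higher at day 13 by 0.90 on the log2 scale (SE 0.17, adjusted p = 0.0168). The call was lost without day 9 siRNA replicate 1 or 3 (adjusted p = 0.0522 and 0.0503). For the other 9 the adjusted p was at least 0.361, and the depth and spread limit what could be seen. For Cyp27a1 the difference was −0.21 (95% interval −0.61 to 0.19), for Hsd3b7 0.00 (−0.52 to 0.52), for Slc27a5 −0.09 (−0.48 to 0.30) and for Baat −0.22 (−0.55 to 0.10). The interval for Cyp7a1, −3.50 to 0.30, was the widest of the 10.

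Libraries that did not overlap were counted as a second reading of the same levels. At day 9, 6 of the 10 transcripts (the 5 that fell, and Amacr) were lower in every siRNA library than in any control library, against 21.0% of all genes tested (22.5% were higher without overlap, and 43.5% either). At day 13 the same 6 genes were lower without overlap, against 16.0% of all genes, and Acox2 was higher without overlap, against 17.2% (33.2% either).

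Compared per kilobase of exon in the day 9 controls, the order was Slc27a5 at 389 ± 11.7 CPM per kilobase, Cyp27a1 at 180.0 ± 20.8, Hsd3b7 at 146 ± 1.51, Baat at 115 ± 7.62, Akr1d1 at 111 ± 18.3, Cyp8b1 at 50.2 ± 22.3, Amacr at 49.2 ± 0.388, Acox2 at 48.7 ± 1.71, Cyp7b1 at 38.5 ± 3.35 and Cyp7a1 at 26.0 ± 13.0 (SD, n = 3). Baat and Akr1d1 did not differ beyond their spread, nor did Cyp8b1, Amacr and Acox2, nor Cyp7b1 and Cyp7a1. The spread of Cyp8b1 also covered Cyp7b1 and overlapped that of Cyp7a1. This measure uses all annotated exons of a gene. In the day 13 controls Cyp7a1 averaged 49.6 ± 38.7 CPM per kilobase, with Acox2 at 37.9 and Cyp7b1 at 19.8, and its spread there covered several of its neighbours. In the day 13 siRNA group Slc27a5 was still highest at 171 ± 25.5 CPM per kilobase, and Cyp7b1 and Cyp7a1 were lowest at 15.9 ± 7.61 and 17.7 ± 3.63.

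Cyp7a1, Cyp8b1 and Cyp7b1 had the highest variation within groups over all 12 libraries, although not in each group (Cyp7b1 was even in the day 9 controls). The SD of log2 CPM of Cyp7a1 was 0.69 among day 9 control libraries and 0.67 among day 9 siRNA libraries, then 1.20 among day 13 control libraries and 0.28 among day 13 siRNA libraries, where the median over all genes tested was 0.14, 0.13, 0.27 and 0.25. The highest day 13 control library held 5.29 times the Cyp7a1 level of the lowest. For Cyp8b1 the SDs were 0.67, 0.40, 0.34 and 0.86 in the same order, and for Cyp7b1 0.13, 0.45, 0.44 and 0.66. In contrast, the SDs of Cyp27a1 lay between 0.14 and 0.19, those of Baat between 0.07 and 0.17, and those of Slc27a5 between 0.04 and 0.21. The 10 transcripts had 201 to 47841 counts in a library.

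**Figure D3:**
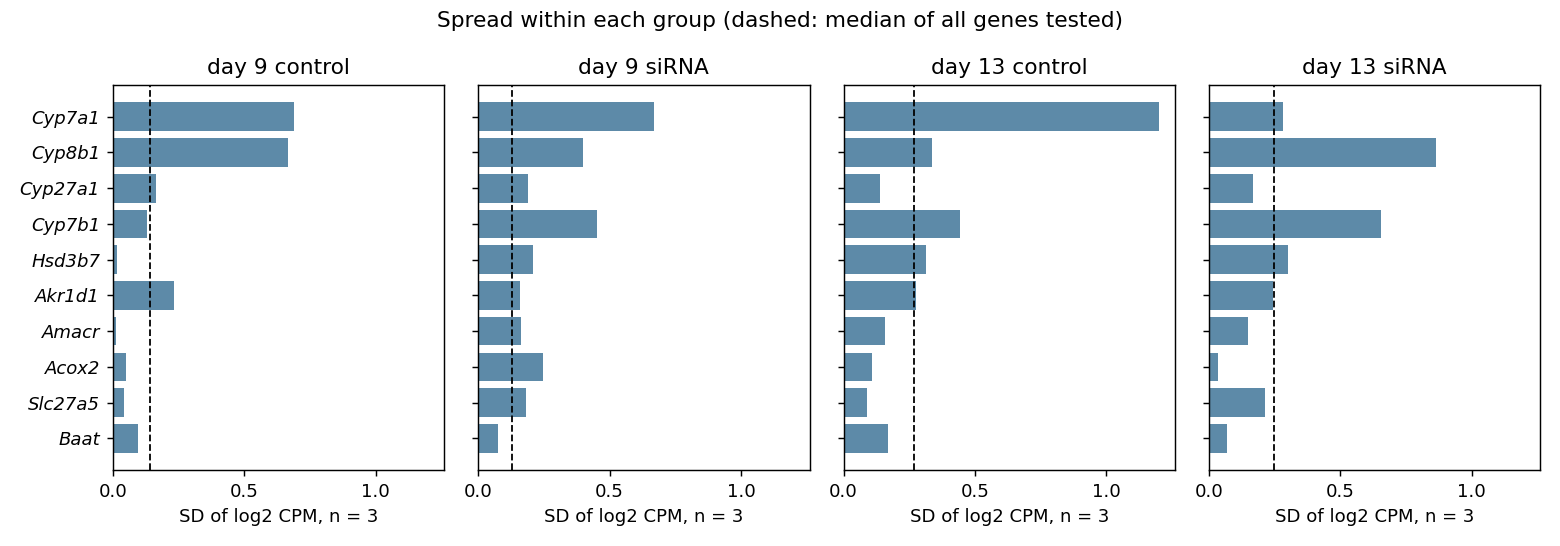
SD of log2 CPM among the 3 libraries of each group for each transcript (bars), with the median over all genes tested as a dashed line. Cyp7a1 stands above that line in all 4 groups, reaching 1.20 in the day 13 controls, while Baat stands below it in all 4.

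Ratios of 2 transcripts within a library do not depend on how libraries are scaled, and 3 were compared. The log2 ratio of Cyp8b1 to Cyp7a1, the classic pathway's branch to cholic acid over its first step, averaged −0.14 ± 0.78 for controls and −0.31 ± 0.27 for siRNA at day 9, then −0.06 ± 1.20 for controls and 0.52 ± 1.14 for siRNA at day 13 (SD, n = 3). That of Cyp7b1 to Cyp7a1 was −0.27 ± 0.82 and −0.29 ± 0.57 at day 9 and −2.00 ± 1.59 and −1.19 ± 0.90 at day 13. That of Cyp7a1 to Cyp27a1, the first enzymes of the classic and the alternative pathway, was −1.96 ± 0.70 and −0.99 ± 0.49 at day 9. For this ratio the day 13 control libraries were at −0.93, −1.98 and 0.61 and the siRNA group at −0.90 ± 0.43. In each case the groups overlapped. With libraries exchanged only within their day, two-sided exact permutation tests over 400 arrangements gave p = 0.71, 0.5 and 0.405 for the siRNA effect averaged over days (adjusted p = 0.71 for each).

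Other genes of the pathway were described from lists, by counts against all genes tested and with no test of a list. Of 16 other enzymes and helpers tested, 3 fell at day 9 and 4 at day 13 and none rose, with medians of −0.31 and −0.32, against 6.84% and 10.9% of all genes lower. Leaving out 1 library gave 1 to 5 called at day 9 (1 without control replicate 3, siRNA replicate 1 or siRNA replicate 3, and 5 without day 13 control replicate 3) and 2 to 6 at day 13 (2 without control replicate 1 or siRNA replicate 2). At day 9, 6 were called by DESeq2, and 5 without both libraries that stood apart. Cyp2c70, the mouse enzyme that makes muricholic acids, went from 945 ± 45.7 to 677 ± 61.9 CPM at day 9 and from 911 ± 150 to 586 ± 30.9 CPM at day 13 (SD, n = 3), with log2 fold changes of −0.48 and −0.64 (adjusted p = 0.0245 and 0.00266 by edgeR). Cyp39a1, an oxysterol hydroxylase, fell by 0.53 and 0.78 on the log2 scale at the 2 days. Cyp46a1, a cholesterol hydroxylase known mainly from brain, fell by 1.60 and 1.44 from a control level of 4.02 ± 1.65 CPM at day 9 and 1.96 ± 0.568 CPM at day 13 (SD, n = 3). Its siRNA levels were low, at 1.32 ± 0.214 and 0.716 ± 0.261 CPM. At day 13 it had only 17, 16 and 12 counts in the controls and 5, 5 and 9 in the siRNA libraries. Por, which passes electrons to microsomal cytochromes P450, fell at day 13 by 0.64. Ch25h had at most 7 counts in a library and was not tested.

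Of 17 regulators, 2 fell at day 9, against 6.84% of all genes, and 1 rose and 1 fell at day 13, against 12.8% higher and 10.9% lower. Nr1i3, the xenobiotic receptor CAR, fell at both days (−1.07 and −1.13, adjusted p = 0.0273 and 0.0143 by edgeR). Its day 9 call was lost without siRNA replicate 1 or 2, as was that of Ppargc1a, since no regulator was then called. Only 1 regulator was called at day 9 without day 9 control replicate 1, control replicate 2 or siRNA replicate 3. The same held with no filter on low counts and with day 9 counts thinned. The day 13 call of Nr1i3 was lost without control replicate 1, without siRNA replicate 2, without both libraries that stood apart and with no filter on low counts. Ppargc1a, a coactivator of fasting genes, fell at day 9 (−0.57), and Nr1i2, the receptor PXR, rose at day 13 (0.45). The call of Nr1i2 was lost without day 13 siRNA replicate 3 and with the day 13 libraries fitted alone. The medians of this list were −0.10 and 0.08. Among 13 bile transporters tested, 1 rose and 2 fell at day 9 (7 called without both libraries that stood apart), and 1 rose and 5 fell at day 13, against the same shares of all genes. The importer Slc10a1 stood at 304 ± 10.9 CPM against 664 ± 29.4 CPM in the day 13 controls, and Abcb4, which carries phospholipid into bile, rose by 0.53 and 0.57 on the log2 scale. Abcc3 fell at both days (log2 fold changes −1.07 and −1.48, adjusted p = 0.00496 and 0.000313 by edgeR). Slco1b2 fell at day 13 (−0.97, adjusted p = 0.00117 by edgeR). Slc51a was at 0 counts in all 12 libraries and was not tested.

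**Figure D4:**
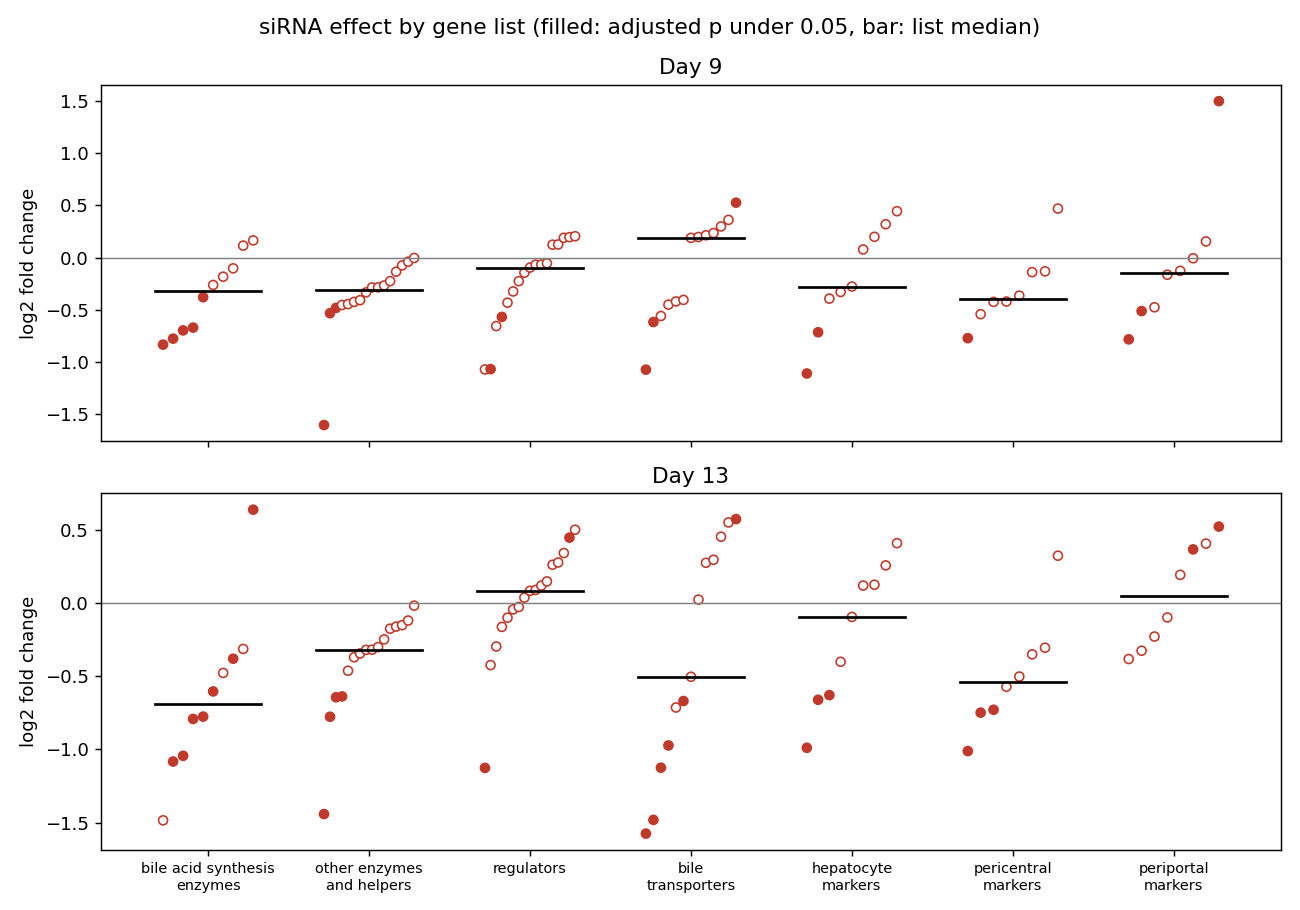
log2 fold change at day 9 (upper) and day 13 (lower) of every tested gene of 7 lists, with filled points for an adjusted p under 0.05 and a bar at the list median. The 10 bile acid synthesis enzymes have medians of −0.32 and −0.69, and pericentral markers −0.39 and −0.54. The other enzymes and helpers have −0.31 and −0.32, and the bile transporters 0.19 and −0.50. Hepatocyte markers have −0.28 and −0.09, periportal markers −0.15 and 0.05, and regulators −0.10 and 0.08.

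Markers of the cells in whole liver are given by count, to be read against the 6.84% lower and 5.94% higher of all genes at day 9 and the 10.9% lower and 12.8% higher at day 13. The labelled tissue held its defining hepatocyte markers, with 9 of 10 found (Tf was not matched) and a summed level of 126337 to 131924 CPM in the day 9 controls. That sum was lower in the siRNA livers at both days, 100937 to 110108 CPM at day 9, and 110665 to 179323 against 184839 to 214974 CPM at day 13. Most of the difference was Alb, whose mean went from 89669 to 68265 CPM at day 9, of a mean sum of 128397 and 106906 CPM, and from 155320 to 98291 CPM at day 13, of 203463 and 145191 CPM. Ahsg, Apob, Serpina1a and Fgb were higher in every day 9 siRNA library than in any control, and none of these 4 passed the test. Their siRNA means were 136%, 125%, 115% and 106% of the control means. Apoa2, Ttr, Alb and Apoh were lower without overlap at day 9, at 46.3%, 60.9%, 76.1% and 79.6% of the control mean. Of all genes tested, 22.5% were higher and 21.0% lower without overlap at day 9. Apoa2 and Ttr fell at day 9, and Apoa2, Ttr and Alb fell at day 13, while none of the 9 rose. Of 8 pericentral hepatocyte markers 1 fell at day 9 and 3 at day 13, and of 8 periportal markers 1 rose and 2 fell at day 9 and 2 rose at day 13. Kupffer cell markers summed to 285 to 346 CPM in the day 9 controls and 186 to 229 CPM in the siRNA libraries, with 4 of 8 lower, and to 255 to 329 against 108 to 182 CPM at day 13, with 6 of 8 lower. Monocyte and macrophage markers summed to 62.1 to 81.2 against 134 to 154 CPM at day 9 (2 of 8 higher) and to 139 to 175 against 79.1 to 98.5 CPM at day 13 (2 of 8 lower). Endothelial markers summed to 293 to 344 against 322 to 367 CPM at day 9 (1 of 8 higher). At day 13 they summed to 317 to 420 against 297 to 305 CPM (3 of 8 lower). Stellate cell markers summed to 260 to 352 against 351 to 391 CPM at day 9 (1 of 8 higher). At day 13 they summed to 434 to 585 against 351 to 372 CPM (3 of 8 lower). Cholangiocyte markers summed to 57.5 to 61.4 against 60.8 to 69.1 CPM at day 9. At day 13 they summed to 44.8 to 52.7 against 57.6 to 69.3 CPM, with 1 of 7 higher (Sox9), and Cftr was at 0 in 2 libraries. Lymphocyte and neutrophil markers summed to at most 9.72 CPM, with none called by edgeR, and Cd79a was at 0 in 3 libraries. The part of these cell types in the fall of the enzymes was not tested.

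By a fixed rule, the genes averaging 5 CPM or more whose log2 CPM, centred on the mean of each day, was most like that of Cyp7a1 over the 12 libraries were Homer2 (Pearson's r 0.934), Saa1 (0.893) and Stard4 (0.875), out of 9311 genes. For Cyp8b1 they were Cd276 (0.938), Aida (0.922) and Cyp51 (0.805). These values describe likeness only. All genes share the same libraries and siRNA groups, and no p is given.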

How the data were processed

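Messenger RNA of mouse liver was sequenced in 12 libraries after mRNA capture, per the labels' protocols. The authors deposited estimated counts per Ensembl gene, with mm10 as the build and RSEM 1.3.0 and STAR 2.5.3a as tools, per the submitters' processing notes. The annotation, strand setting and filters were not given in the sources used here. Deposited expected counts were whole numbers, taken as rounded and used as they stood. Symbols, positions and exon lengths came from GENCODE M21, which matched 50462 of 50686 identifiers, and promoter sequences from RefSeq. Genes sharing exons can share such counts.

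Genes were kept with filterByExpr at a minimum count of 10. Libraries were scaled by TMM, and the main test was edgeR 4.0.16's quasi-likelihood test with robust dispersions on all 12 libraries in 4 groups, two-sided, with Benjamini-Hochberg adjustment at 0.05. CPM were computed from the counts with TMM factors. The SE is the log2 fold change over the square root of the F statistic. Ratios used a pseudocount of 0.5. The rule for named genes took the 10 enzymes, Eif3m and up to 4 called genes of each other list with the smallest p. It also took the 3 genes most like Cyp7a1 and Cyp8b1. Not all of them are printed, and other genes, such as Ahsg, Apob, Serpina1a, Fgb and Apoh, are named outside this rule. The enzymes and lists were chosen with earlier results of these data known. Alternatives were other scalings and filters, DESeq2 1.42.0, limma-voom (limma 3.58.1), a replicate block, each day fitted alone, day 9 counts thinned to a mean total of 8591308, and leaving out libraries. Steps were tested on simulated data. Every pair of libraries within a group differed by more than sampling noise. R 4.3.3, Python 3.11.15 and matplotlib 3.10.9 were used.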

Additional observations from a re-analysis of the deposited data

Results flagged for a closer look

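By edgeR's test of the difference itself, 364 of the 14248 genes tested (2.55%) had siRNA effects that differed between the days, which also differed in library set and depth. They included 1 of the 10 enzymes and 7 of the 118 tested genes of the other lists, which are given as the day 13 effect minus the day 9 effect on the log2 scale. The enzyme Acox2 differed by 0.90 (−0.26 at day 9 and 0.64 at day 13, adjusted p = 0.0168). The cholangiocyte marker Sox9 differed by 1.71 (0.31 and 2.02, adjusted p = 0.00737). The other 6 were markers of non-parenchymal cells whose effect was above 0 at day 9 and below 0 at day 13. Lyz2 differed by −2.00 (adjusted p = 0.000664), Ccr2 by −1.64 (adjusted p = 0.0460), and Adgre1 by −1.53 (adjusted p = 0.00536). Lyve1 differed by −2.07 (adjusted p = 0.00311), Col1a1 by −2.34 (adjusted p = 0.0362) and Col3a1 by −1.70 (adjusted p = 0.0209). Groups of 3 libraries were too small for the search for single outlying libraries.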

How the results depend on the processing

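Cyp27a1 and Slc27a5 kept their calls at both days under all 22 alternatives, with adjusted p up to 0.0110 and 0.00133 for Cyp27a1 and up to 0.0211 and 0.00736 for Slc27a5. Enzymes called numbered 4 to 5 at day 9 and 6 to 7 at day 13 when no library was left out, and 2 to 5 and 6 to 7 when each library was left out in turn (3 at day 9 without control replicate 3, 2 without siRNA replicate 1). Without day 13 control replicate 3 and siRNA replicate 2, an alternative chosen after seeing the data, 5 were called at day 9, 7 at day 13 and 1 for the difference. Replicate numbers did not pair the libraries (correlations of same-numbered libraries −0.109, −0.158 and 0.158 at day 9 and 0.081, −0.067 and −0.013 at day 13). With the replicate block, 0 enzymes were called for the difference, Acox2 having an adjusted p of 0.0529, and the calls of Baat at day 9 (adjusted p = 0.0844) and of Amacr at day 13 (adjusted p = 0.0655) were lost. Leaving out 1 library gave 0 to 1 enzymes for the difference.

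Over all genes, 1821 were called at day 9, against 2740 with limma-voom, 1156 with day 9 counts thinned, 3412 with its own 6 libraries, 3050 without the 2 libraries that stood apart, and 884 to 2250 with 1 library left out. At day 13, 3377 were called, against 2014 with its own 6 libraries and 2299 to 3288 with 1 left out. For the difference, 364 were called, against 968 with DESeq2, 117 with the replicate block, 220 thinned and 130 to 508 with 1 left out. Directions that reversed were those of values with no call: Hsd3b7 for the difference (−0.050 with upper-quartile scaling, −0.030 among genes of at least 5 CPM, −0.16 to 0.19 with 1 library left out), Cyp8b1 for the difference (0.087 without the 2 libraries that stood apart), and at day 9, with 1 library left out, Cyp7a1 (−0.13 to 0.60), Cyp8b1 (−0.37 to 0.29) and Cyp7b1 (−0.16 to 0.32). The averaged log2 ratio of Cyp8b1 to Cyp7a1 ran from −0.044 to 0.54 with 1 library left out. The cause was not tested. Lists of other genes moved too. At day 9, DESeq2 called 6 other enzymes, 4 regulators and 6 transporters, where edgeR called 3, 2 and 3. With 1 library left out these counts ran from 1 to 5, from 0 to 3 and from 2 to 4.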

Other observations

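Some regulators and a transporter of the pathway that edgeR's main test did not call are given as values, named after their values were seen. DESeq2 and limma-voom each called 4 regulators at day 9 where edgeR called 2. Nr0b2, the repressor SHP that FXR induces, held 42.7 ± 6.37 CPM in the day 9 controls and 20.3 ± 5.07 CPM in the day 9 siRNA group (SD, n = 3). Its log2 fold change there was −1.07 (adjusted p = 0.0676 by edgeR), and at day 13 it was 0.12 (adjusted p = 0.850), from 39.8 ± 19.7 to 43.1 ± 10.2 CPM. Nr1h4, which encodes FXR, had log2 fold changes of −0.07 and 0.09 at the 2 days, and the bile salt export pump Abcb11 had 0.20 and 0.28. For the clock genes Nr1d1 and Dbp, whose levels follow the time of day, the log2 fold changes were −0.66 (adjusted p = 0.0613) and −0.10 (adjusted p = 0.895) at day 9, and 0.50 (adjusted p = 0.112) and −0.42 (adjusted p = 0.436) at day 13.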
